A study of Homo sapiens with 24 samples.

Results

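The genes that encode the proteasome, its regulators and its assembly chaperones were followed through drug treatment of 3 acute myeloid leukaemia cell lines. Members were all genes whose symbol starts with PSM, continues with a letter from A to G and ends in a number, which gave 48 of the 25680 genes in each expression table. A member was tested in a line when its normalised read count was at least 10 in at least 3 libraries of that line's table. This left 46 members in MV411, and 45 each in MOLM13 and OCI-AML3. PSMB9 and PSMB11 stayed under that limit in all 3 lines, and PSMA8 passed it in MV411 alone.

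Poly(A) RNA was sequenced in 24 libraries that form 8 groups of 3. MV411 cells received DMSO, the menin-MLL inhibitor MI-503 at 2.5 µM for 3 days, the FLT3 inhibitor AC220 (quizartinib) at 3 nM for 24 hours, or both drugs on these schedules. MOLM13 and OCI-AML3 cells received DMSO or MI-503 at 2.5 µM for 4 days. MV411 and MOLM13 carry an MLL fusion and an internal tandem duplication of FLT3, whereas OCI-AML3 carries mutant NPM1 without the FLT3 duplication. The triplicates are labelled as biological, but how the cultures were separated is not given in the sources used here, so p-values measure the spread between these libraries. Each condition rests on 1 established line, and the 3 tables were normalised separately.

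The proteasome degrades proteins tagged with ubiquitin. Its barrel-shaped 20S core has outer rings of alpha subunits, which gate entry, and inner rings of beta subunits, of which PSMB5, PSMB6 and PSMB7 carry the proteolytic sites. The 19S cap binds ubiquitin chains, removes them and unfolds the substrate with a ring of ATPases. In cells exposed to interferon, and in blood cells generally, PSMB8, PSMB9 and PSMB10 can replace the standard catalytic subunits to form the immunoproteasome. PSME1 and PSME2 form the PA28 ring, an alternative cap that favours peptides for MHC class I presentation.

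Libraries held between 23168887 and 26596469 reads in MV411, between 23281330 and 27240357 in MOLM13, and between 44364964 and 72994481 in OCI-AML3. Values are normalised read counts, relative to the typical gene of the table. For MOLM13 and OCI-AML3 the deposited values were first divided by median-of-ratios factors, and results on the deposited scale are given beside them. All 4 myeloid markers (PTPRC, CD33, SPI1 and MPO) had reads in each group. Their summed level in MV411 was 14308 to 14905 with DMSO, 14462 to 14831 with MI-503, 18713 to 19237 with AC220 and 19969 to 20820.1 with both. With MI-503 against DMSO it was higher in MOLM13 (11729 to 12736 against 9509 to 9920) and lower in OCI-AML3 (46227 to 48605 against 75051 to 76902). T cell and epithelial lists reached a summed level of 5.22 at most in any library. The B cell list, without MS4A1 reads in MV411 or MOLM13, summed in MV411 to 110.4 to 133 with DMSO, 58.1 to 78.9 with MI-503, 91.5 to 123 with AC220 and 57.0 to 76.7 with both. It stayed at 42.5 or lower in the other lines, with 15.0 to 31.5 in MOLM13 DMSO and 39.4 to 42.5 with MI-503. The fibroblast list reached 11.9 at most in MV411 and MOLM13, and in OCI-AML3 it was 434 to 486 with DMSO and 393 to 513 with MI-503. The erythroid list was at 0 in all MV411 and MOLM13 libraries, and ranged from 0 to 483 in OCI-AML3 DMSO libraries and from 3.10 to 356 with MI-503. What part these marker levels have in the results was not tested.

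PSMB8 and PSMB9 need a separate reading. Both lie in the MHC region of chromosome 6, and of the 34 protein-coding genes within 500 kb of PSMB8, 11 passed the low-value filter in MV411, 6 in MOLM13 and 11 in OCI-AML3. These shares were 32.35%, 17.65% and 32.35%, against 54.72%, 54.93% and 63.52% of the 943 other genes of chromosome 6. Genes that every cell uses were also listed at or near 0 there. RPS18, a protein of the small ribosomal subunit, had 0 to 2 reads per MV411 library and 60 to 92 per OCI-AML3 library, and PFDN6, a subunit of the prefoldin chaperone, was listed at 0 in all 3 lines. The MHC peptide transporter genes TAP1 and TAP2, beside PSMB8, had at most 5 and 3 reads in any MV411 library. Coverage of the interval was uneven, since HLA-DQB1 held 474 to 3363 reads per MV411 library and HLA-DRB1 held 531 to 2876. PSMB8 held 29 to 58 reads per MV411 library and PSMB9 held 0 to 4. The PSMB8 and PSMB9 counts were therefore not taken as levels of the immunoproteasome subunits. Why reads are few for many genes of this interval was not tested.

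Promoter sequences are shown for 5 members with large decreases in AC220-treated MV411 cells (PSMD12, PSMG1, PSMC3, PSMA3 and PSMD14), for PSMB4, which rose, and for the neighbouring PA28 genes PSME1 and PSME2, whose values are set side by side below. Each line gives the 250 bases before the RefSeq transcription start, 5′ to 3′ on the gene's strand, from build GRCh38.p14. The intervals are chr17:67366578-67366827, chr21:39183452-39183701, chr11:47426440-47426689 and chr14:24146611-24146860 on the minus strand, and chr14:58244593-58244842, chr2:161308175-161308424, chr1:151399323-151399572 and chr14:24135944-24136193 on the plus strand. Capitals mark matches on either strand to TGACNNNGC, the antioxidant-type element that NRF1 (encoded by NFE2L1) is known to bind in proteasome genes, to CCAAT, the NF-Y element, and to an interferon-stimulated element, which is GAAA, 2 bases of any kind and GAAA again. The CCAAT match on each strand of PSMD14 shares 2 bases with the other.
PSMD12: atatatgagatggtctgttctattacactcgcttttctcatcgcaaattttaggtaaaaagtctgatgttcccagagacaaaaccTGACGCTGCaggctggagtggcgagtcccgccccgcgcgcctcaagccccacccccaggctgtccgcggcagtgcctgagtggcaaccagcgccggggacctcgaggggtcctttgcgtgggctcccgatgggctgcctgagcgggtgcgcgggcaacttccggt
PSMG1: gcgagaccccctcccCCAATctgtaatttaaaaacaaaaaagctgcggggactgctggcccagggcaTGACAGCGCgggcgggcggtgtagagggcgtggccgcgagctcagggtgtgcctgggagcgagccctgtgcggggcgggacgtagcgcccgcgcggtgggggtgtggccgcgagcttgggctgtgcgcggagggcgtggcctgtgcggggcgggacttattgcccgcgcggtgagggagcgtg
PSMC3: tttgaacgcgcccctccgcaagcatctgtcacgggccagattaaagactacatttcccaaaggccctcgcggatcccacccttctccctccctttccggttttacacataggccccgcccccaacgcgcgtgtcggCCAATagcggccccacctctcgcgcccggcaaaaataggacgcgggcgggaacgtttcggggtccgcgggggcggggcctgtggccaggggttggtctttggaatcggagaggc
PSMA3: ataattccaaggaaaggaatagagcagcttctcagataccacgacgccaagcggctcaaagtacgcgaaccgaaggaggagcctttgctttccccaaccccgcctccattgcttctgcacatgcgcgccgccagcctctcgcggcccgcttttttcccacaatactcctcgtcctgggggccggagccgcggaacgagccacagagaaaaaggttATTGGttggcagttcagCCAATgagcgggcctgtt
PSMD14: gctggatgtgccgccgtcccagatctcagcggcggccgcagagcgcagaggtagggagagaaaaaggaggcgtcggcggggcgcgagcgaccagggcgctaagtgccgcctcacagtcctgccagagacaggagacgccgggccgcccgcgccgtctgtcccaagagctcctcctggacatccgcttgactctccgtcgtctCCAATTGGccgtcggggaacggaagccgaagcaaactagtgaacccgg
PSMB4: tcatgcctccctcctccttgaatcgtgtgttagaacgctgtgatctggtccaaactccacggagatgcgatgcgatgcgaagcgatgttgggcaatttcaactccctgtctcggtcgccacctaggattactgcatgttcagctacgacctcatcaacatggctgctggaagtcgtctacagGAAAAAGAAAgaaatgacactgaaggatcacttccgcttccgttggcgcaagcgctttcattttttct
PSME1: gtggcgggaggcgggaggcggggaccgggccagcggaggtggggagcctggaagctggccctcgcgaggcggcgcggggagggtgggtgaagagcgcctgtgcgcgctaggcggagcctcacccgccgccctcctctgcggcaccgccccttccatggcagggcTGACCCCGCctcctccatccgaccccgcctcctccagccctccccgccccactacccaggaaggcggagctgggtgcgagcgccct
PSME2: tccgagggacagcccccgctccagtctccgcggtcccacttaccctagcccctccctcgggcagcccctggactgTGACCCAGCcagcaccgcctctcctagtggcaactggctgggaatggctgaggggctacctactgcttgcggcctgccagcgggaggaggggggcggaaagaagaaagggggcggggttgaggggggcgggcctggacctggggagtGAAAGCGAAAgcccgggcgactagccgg

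RefSeq promoters were found for 42 of the 48 members. TGACNNNGC was present in 11 of them (26.2%), against 12.3% of the 10152 tested MV411 genes with a promoter and 11% of all 27305 promoters. CCAAT was present in 18 (42.9%), against 34.9% and 33%. Of the other motifs, CCGGAAG (ETS) was present in 23.8%, CACGTG (E-box) in 7.14%, the interferon-stimulated element in 11.9% and TTCNNNGAA (STAT) in 11.9%. Their shares among the tested genes were 15.7%, 8.97%, 2.55% and 5.8%, and among all promoters 8.82%, 6.49%, 3.07% and 6.78%. Of the 33 promoters of members lowered by AC220 in MV411, TGACNNNGC was present in 7 (21.2%) and CCAAT in 16 (48.5%). The other motifs, in the order above, were present in 27.3%, 6.06%, 9.09% and 15.2% of them. Whether a motif goes with the direction of change was not tested. Among the PA28 genes, PSME2 holds both TGACNNNGC and the interferon-stimulated element, and PSME1 holds TGACNNNGC alone of those 2 motifs. PSMB10, PSMB4, PSMA4 and PSMG4 were the other members with the interferon-stimulated element. The sequences printed above are a selection and do not stand for the family. PSMD11, also lowered by AC220, holds none of the capitalised motifs, and PSMG2, which AC220 raised, holds TGACNNNGC. A match describes these letters and is not a measured binding site.

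MI-503 alone lowered more members than it raised in MV411. Limma with Benjamini-Hochberg adjustment over 14421 genes, at a threshold of 0.05, called 8 of the 46 tested members higher (17.4%) and 23 lower (50%). Of all genes 60.6% were called, 29.8% higher and 30.8% lower, so the members' share of increases was below the background. The median log2 change of members was -0.09, beside -0.01 for all genes tested. The count of 8 higher fell to 5 without DMSO replicate 2 or without MI-503 replicate 3, while 22 and 21 stayed lower. Decreases were spread over the rings and the cap. In the alpha ring 0 members were higher and 5 of 8 lower, in the beta ring 2 were higher and 3 of 7 lower, among the 19S ATPases 0 were higher and 3 of 6 lower, and among the 19S non-ATPases 1 was higher and 8 of 11 lower. The assembly chaperones had 2 higher and 3 lower of 7.

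PSMD12, a scaffold subunit of the 19S lid, had values of 2465, 2233 and 2292 in DMSO and 1465, 1471 and 1409 with MI-503. The groups did not overlap, and the log2 change was -0.68 ± 0.0592 (SE), or 0.622-fold, with a limma adjusted p of 6.91e-10. PSMA3, a 20S alpha subunit, went from 3412, 3266 and 3482 to 2323, 2506 and 2385, a log2 change of -0.49 ± 0.0568 with an adjusted p of 7.68e-08. All treated libraries of PSMA3 lay below all DMSO libraries. PSMD10 (gankyrin), an assembly chaperone of the cap, fell by 0.46 on the log2 scale (adjusted p 8.41e-06), and PSMD1, the large scaffold of the cap base, fell by 0.38 (adjusted p 3.45e-07). PSMA8, the alpha subunit known from testis, had the largest change of the family, at 215, 207 and 209 in DMSO and 122, 107 and 99.3 with MI-503, or -0.94 ± 0.128 (adjusted p 1.05e-06), at the low end of the family's values.

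A smaller set rose with MI-503 alone. PSMF1, an inhibitor of the 20S core, went from 2677, 2575 and 2694 to 3279, 3210 and 3376, a log2 change of 0.31 ± 0.0413 (adjusted p 6.51e-07), with no overlap. PSME2 rose by 0.28 ± 0.05 (adjusted p 4.65e-05) and PSMB10 by 0.20 ± 0.0601 (adjusted p 0.0059), which made 2 higher and 0 lower among the 4 tested immunoproteasome genes. PSMD4, a ubiquitin receptor of the cap, rose by 0.18, and PSMB4, a beta subunit without a proteolytic site, by 0.12. The remaining 3 increases were PSMB6 at 0.14, PSMG3 at 0.16 and PSMG4 at 0.23, the last pair being chaperones of alpha ring assembly. The PSMB6 call was lost without DMSO replicate 1 (adjusted p 0.0812), DMSO replicate 2 (0.12) or MI-503 replicate 3 (0.128). Of the other standard catalytic subunits, PSMB5 was called lower, at -0.19, and PSMB7 was not called. The PSMG4 call was lost without DMSO replicate 2 (0.0914), DMSO replicate 3 (0.0831) or MI-503 replicate 1 (0.146), and 1388 exonic bases of PSMG4 are shared with SLC22A23 on the opposite strand. PSMB8 had a log2 change of 0.50 ± 0.221 that was not called (adjusted p 0.0561), and it was called without MI-503 replicate 2, at 0.65 (adjusted p 0.0252).

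AC220 lowered most of the family in MV411 after 24 hours. Of 46 tested members 37 were lower and 4 higher, where 74.9% of all genes were called, 37.7% higher and 37.3% lower. The members' median log2 change was -0.49, beside 0.01 for all genes tested. The myeloid marker sum given above was higher in every AC220 library than in any DMSO library, and its part in these changes was not tested. Every tested alpha subunit (8 of 8) and every 19S ATPase (6 of 6) was lower, as were 10 of 11 non-ATPases, 5 of 7 beta subunits and 5 of 7 assembly chaperones. Since RNA came from bulk cultures, fewer cells of a given state and less RNA per cell cannot be told apart here or in the other comparisons.

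PSMD12 showed the largest change of the family here, with AC220 values of 1075, 929 and 1029 against the DMSO values above, a log2 change of -1.21 ± 0.0592 or 0.434-fold (limma adjusted p 6.64e-15). PSMG1, a chaperone of the alpha ring, had 1134, 1061 and 1036 in DMSO and 455, 503 and 496 with AC220, or -1.15 ± 0.0677 (adjusted p 2.07e-13). PSMC3, an ATPase of the cap, went from 3434, 3304 and 3490 to 1690, 1717 and 1630, or -1.02 ± 0.0487 (adjusted p 3.6e-15). In none of these 3 genes did an AC220 library reach the lowest DMSO library. PSMA3 fell by 0.98 on the log2 scale, to 1683, 1689 and 1794. PSMD11, a lid scaffold, fell by 0.97 and PSMD14, the deubiquitinase of the lid, fell by 0.90, to 1312, 1413 and 1390 from 2591, 2445 and 2639. PSME3, which forms the nuclear PA28 gamma ring, fell by 0.72 (adjusted p 1.97e-13), and shares 300 exonic bases with BECN1 on the other strand. Whether the authors' counting used strand is not given in the sources used here, so reads of such pairs cannot be told apart.

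Of the catalytic subunits, PSMB5 and PSMB6 fell with AC220. PSMB5, the chymotrypsin-like subunit and the main target of bortezomib, had 2040, 2012 and 2119 in DMSO and 1435, 1497 and 1460 with AC220, or -0.49 ± 0.0457 (adjusted p 9.89e-10). PSMB6, the caspase-like subunit, had 1723, 1681 and 1869 in DMSO and 1237, 1302 and 1196 with AC220, or -0.50 ± 0.0534 (adjusted p 1.17e-08). Neither gene's groups overlapped. PSMB7, the trypsin-like subunit, had 3283, 3290 and 3475 against 3210, 3266 and 3099, a change of -0.07 that did not pass the test (adjusted p 0.136). PSMB10, which replaces PSMB7 in the immunoproteasome, had 2142, 2203 and 2150 against 2625, 2247 and 2255, a change of 0.13 ± 0.0601 just outside the threshold (adjusted p 0.0545). AC220 replicate 1 of PSMB10 lies apart from the other two. Without AC220 replicate 2 the PSMB10 change was called at 0.17 (adjusted p 0.0288), and without replicate 3 also at 0.17 (adjusted p 0.0289).

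The 4 members that rose with AC220 have unlike roles. PSMG2, the partner of PSMG1 in the alpha ring chaperone, went from 2033, 2043 and 1958 to 2581, 2632 and 2691, or 0.39 ± 0.0433 (adjusted p 2.06e-08), while PSMG1 fell. PSMG2 shares 468 exonic bases with CEP76 and 92 with SPIRE1 on the other strand. PSMF1 rose to 3379, 3402 and 3447, or 0.36 ± 0.0413 (adjusted p 2.79e-08). PSMD4 rose from 2952, 2967 and 3156 to 3545, 3674 and 3505, or 0.24 ± 0.043, and PSMB4 from 4711, 4905 and 5046 to 5287, 5532 and 5358, or 0.14 ± 0.0439 (adjusted p 0.00572). Treated and control libraries did not overlap for any of the 4. PSMB4 and PSMD4 lie 132.1 kb apart on chromosome 1.

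**Figure D1:**
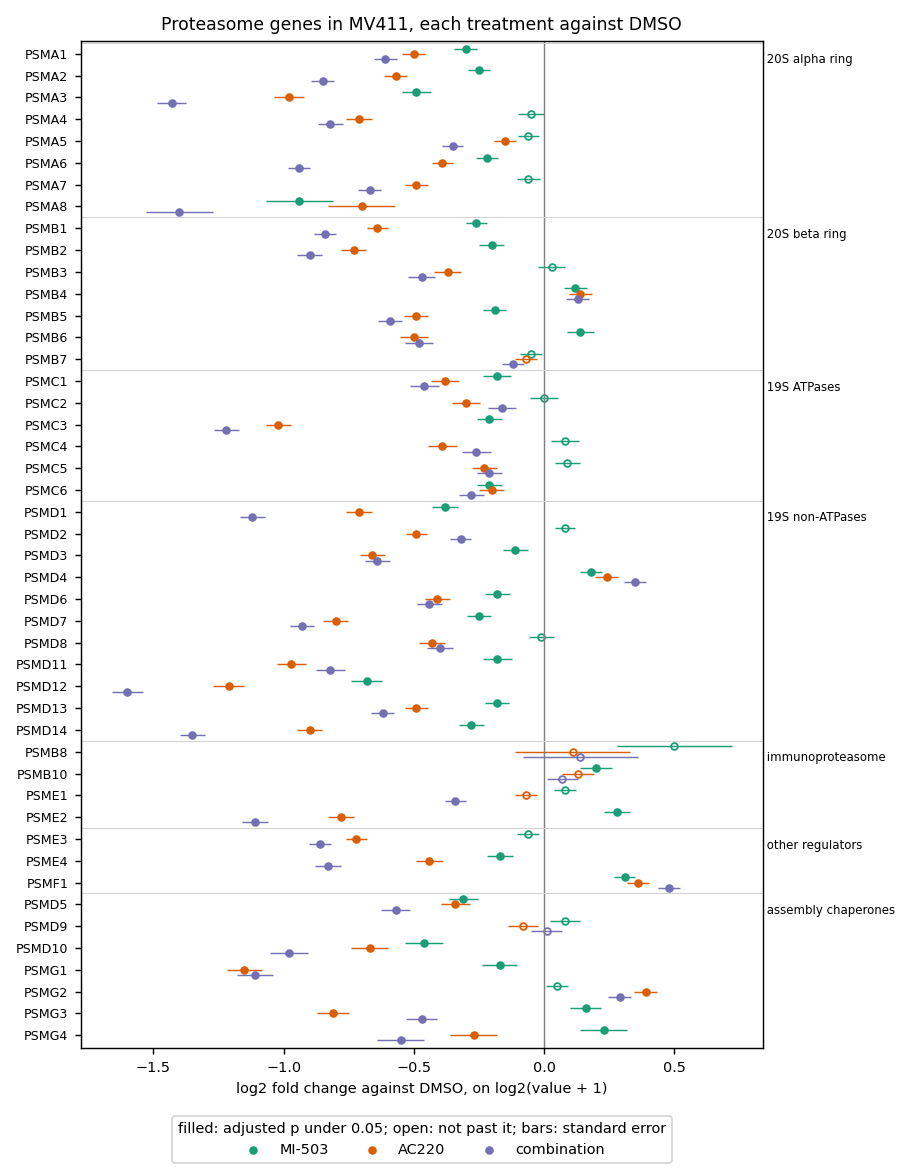
Log2 fold change against DMSO in MV411 for the 46 tested proteasome genes, grouped by role (vertical axis), with MI-503, AC220 or both (colours), 3 libraries a group. Bars are standard errors and filled points passed an adjusted p of 0.05. Most AC220 and combination points lie left of 0, and PSMB4, PSMD4, PSMG2 and PSMF1 lie right of it.

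With both drugs, 39 members were lower and 4 higher than in DMSO, where 79.4% of all genes were called, 39.3% higher and 40.1% lower. The members' median was -0.58, beside 0.00 for all genes tested. All 8 alpha subunits, all 6 ATPases, 10 of 11 non-ATPases and 6 of 7 beta subunits were lower, and PSMB4, PSMD4, PSMG2 and PSMF1 were the 4 that rose. PSMD12 fell by 1.60 on the log2 scale (0.33-fold, adjusted p 1.85e-17), to 721, 808 and 776. PSMA3 fell by 1.43 (adjusted p 7.63e-17), to 1138, 1274 and 1377, and PSMD14 fell by 1.35 (adjusted p 8.85e-18), to 1017, 991 and 1009. PSMA8 fell by 1.40 and PSMC3 fell by 1.22. PSMB4 rose by 0.13, and its lowest combination library, 4994, lay below its highest DMSO library. PSMB5 (mean 1364 with both drugs, 2057 in DMSO) and PSMB6 (1259 and 1758) were called lower. The decrease of PSMB7, at -0.12, was lost without combination replicate 3 (adjusted p 0.0546) or DMSO replicate 3 (adjusted p 0.0774). PSMD9, a chaperone of the cap base, had the smallest change, 0.01 (adjusted p 0.874).

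Adding AC220 to MI-503 lowered 37 members and raised 3 (PSMD4, PSMG2 and PSMF1), where 68.5% of all genes were called, 34.9% higher and 33.6% lower. The members' median was -0.48, beside 0.02 for all genes. PSME2 had the largest decrease of the family in this comparison, from 3290, 3636 and 3421 with MI-503 to 1290, 1327 and 1344 with both, or -1.38 ± 0.05 (adjusted p 3.91e-17). PSMD14 fell by 1.07, PSMC3 fell by 1.00 and PSMG1 fell by 0.94.

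Adding MI-503 to AC220 changed fewer members. Here 22 were lower and 7 higher, where 55.5% of all genes were called, 27.4% higher and 28.1% lower, with a median of -0.11 beside -0.01 for all genes. When libraries were instead scaled to equal totals, 28 were lower and 2 higher. Of all 14421 genes, 4771 were then lower and 3437 higher, against 4053 and 3954 in the main fit. The move towards lower was thus not particular to the members. The count of 7 higher also fell to 2 without AC220 replicate 1 or without combination replicate 2, and to 4 without combination replicate 1, with 20 to 24 lower whichever library was left out. The alpha ring had 7 of 8 members lower, while the beta ring had 2 of 7 and the ATPases 1 of 6. PSMA6, an alpha subunit, went from 3397, 3557 and 3558 with AC220 to 2354, 2374 and 2452 with both, or -0.55 ± 0.0417 (adjusted p 9.7e-11). PSMD14 fell by 0.45, PSMA3 fell by 0.45, PSMD1 fell by 0.41 and PSMD12 fell by 0.39. PSMG3 rose by 0.35 ± 0.0607 (adjusted p 3.42e-05), from 402, 410 and 431 to 548, 513 and 523. PSMA6 and PSMG3 libraries did not overlap between these groups. The small increases of PSMC2 (0.14), PSMC4 (0.13) and PSMF1 (0.11) did not survive equal totals, where their adjusted p was 0.147, 0.179 and 0.141. Without AC220 replicate 1 the increase of PSMC2 (adjusted p 0.178), PSMC4 (0.174) and PSMF1 (0.0648) was lost as well. Without combination replicate 2 it was also lost for PSMC2 (0.117), PSMC4 (0.0974) and PSMF1 (0.0872). Combination replicate 1 mattered for PSMC4 (0.188 without it) and PSMF1 (0.0582), AC220 replicate 3 for PSMC4 (0.0869) and AC220 replicate 2 for PSMF1 (0.0561). PSMG4 fell by 0.27, a call lost without combination replicate 3 (0.0556).

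The interaction, which is the MI-503 effect in the presence of AC220 minus its effect without AC220, was called for 11 members, 3 positive and 8 negative. Of all genes 42.5% were called, 20.9% positive and 21.6% negative, so the members' share was below the background, and their median was 0.02 beside -0.02. With equal library totals 2 members were positive and 13 negative, and without combination replicate 1, 5 were positive and 8 negative. Equal totals also moved the counts of all genes, to 2578 positive and 3761 negative from 3014 and 3119. None of the 7 tested beta subunits and none of the 6 ATPases was called, except that PSMB4 was called with equal totals (-0.18, adjusted p 0.0132) and without combination replicate 1 (-0.16, adjusted p 0.0369), and PSMB3 with equal totals (-0.18, adjusted p 0.0447). PSMD11 (0.33), PSMD12 (0.29) and PSMA1 (0.18) were positive, where the combination lowered the gene by less than the sum of the single changes. PSME2 was the most negative, at -0.60 ± 0.0707 (adjusted p 2.94e-07), followed by PSMG4 at -0.50, PSME1 at -0.34 and PSMA6 at -0.33. PSMB10 (-0.26), PSME4 (-0.21), PSMF1 (-0.20) and PSMD14 (-0.17) completed the list. The PSMD14 call, with an adjusted p of 0.047, was lost without AC220 replicate 2 or 3, combination replicate 2 or 3, DMSO replicate 1 or 2, or any MI-503 replicate, where its adjusted p ranged from 0.0506 to 0.129. PSMB10 lost its call without AC220 replicate 1 (0.0664), PSME4 without combination replicate 1 (0.0504) or MI-503 replicate 2 (0.0535), and PSMA1 without combination replicate 2 (0.0605), DMSO replicate 1 (0.0525) or MI-503 replicate 1 (0.0722).

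PSME2 fell with AC220 in MV411, and PSME1 did not pass the test. PSME1 and PSME2 lie 4.395 kb apart on chromosome 14 and encode the alternating subunits of 1 ring. PSME1 had 3997, 4116 and 3949 in DMSO libraries and 4060, 4306 and 4350 after MI-503, beside 3704, 3989 and 3810 after AC220 and 3215, 3188 and 3152 after both. Its change passed the test with both drugs (-0.34 ± 0.0419, adjusted p 1.08e-07), and not with MI-503 (0.08, adjusted p 0.123) or AC220 (-0.07, adjusted p 0.14) alone. PSME2 had 2896, 2731 and 2914 in DMSO libraries and 3290, 3636 and 3421 after MI-503, beside 1557, 1728 and 1683 after AC220 and 1290, 1327 and 1344 after both. It rose with MI-503, fell by 0.78 on the log2 scale with AC220 (adjusted p 9.73e-13) and fell by 1.11 with both (adjusted p 8.06e-16). None of these PSME2 groups overlapped with DMSO.

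The PSME2 to PSME1 ratio within a library does not depend on the library's size factor. This ratio was added after the values were seen and has no test. Its log2 mean was -0.50 ± 0.082 (SD, n = 3) in DMSO and -0.30 ± 0.0514 with MI-503. It was -1.21 ± 0.0362 with AC220 and -1.27 ± 0.0442 with both. AC220-treated libraries, with or without MI-503, lay between -1.32 and -1.18, and the other 6 MV411 libraries between -0.59 and -0.24. In MOLM13 the ratio was -0.22 ± 0.0701 in DMSO and -0.18 ± 0.0289 with MI-503, which overlapped, and in OCI-AML3 it was -0.17 ± 0.034 and -0.05 ± 0.00445, which did not. Read ratios between genes carry their unequal lengths, so only the shift between groups of a line is read. PSME2 shares 216 exonic bases with RNF31 on the opposite strand and 77 with the microRNA gene MIR7703, and what part those reads have in the ratio was not tested.

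**Figure D2:**
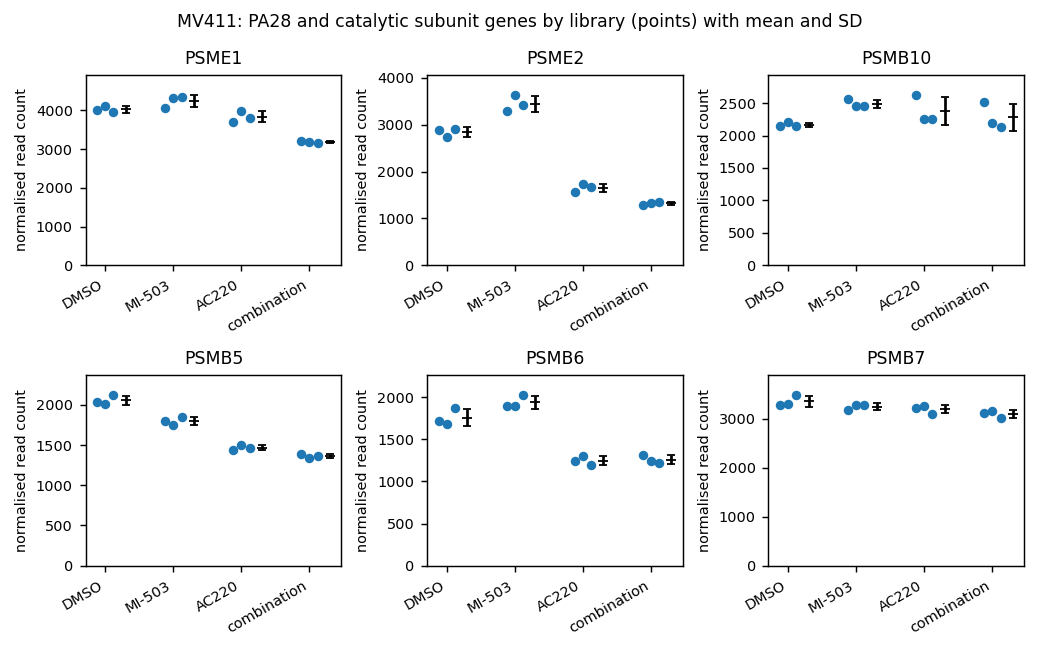
Normalised read counts (vertical axes, starting at 0) of PSME1, PSME2, PSMB10, PSMB5, PSMB6 and PSMB7 in the 12 MV411 libraries (points), with mean and SD beside each group of 3. PSME2 drops to between 1290 and 1728 in the AC220 and combination libraries, whereas PSME1 stays at 3152 or higher.

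The log2 ratio of PSMB10 to PSMB7, which compares a subunit of the immunoproteasome with the standard subunit it replaces, was -0.63 ± 0.0581 (SD, n = 3) in MV411 DMSO libraries. It was -0.38 ± 0.065 after MI-503, -0.43 ± 0.127 after AC220 and -0.44 ± 0.119 after both. The shift from DMSO was 0.20 with AC220 and 0.13 without AC220 replicate 1, and it was 0.19 with both drugs and 0.12 without combination replicate 1. All 9 treated MV411 libraries lay above all 3 DMSO libraries, whose highest value was -0.58. It was -1.90 ± 0.0283 and -1.91 ± 0.146 in MOLM13, without and with MI-503, which overlapped. In OCI-AML3 it was 0.27 ± 0.0472 and 0.57 ± 0.127, with no overlap. The PSMB8 to PSMB5 ratio rests on the few PSMB8 reads described above, and the PSMB9 to PSMB6 ratio could not be formed in libraries where PSMB9 was listed at 0.

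**Figure D3:**
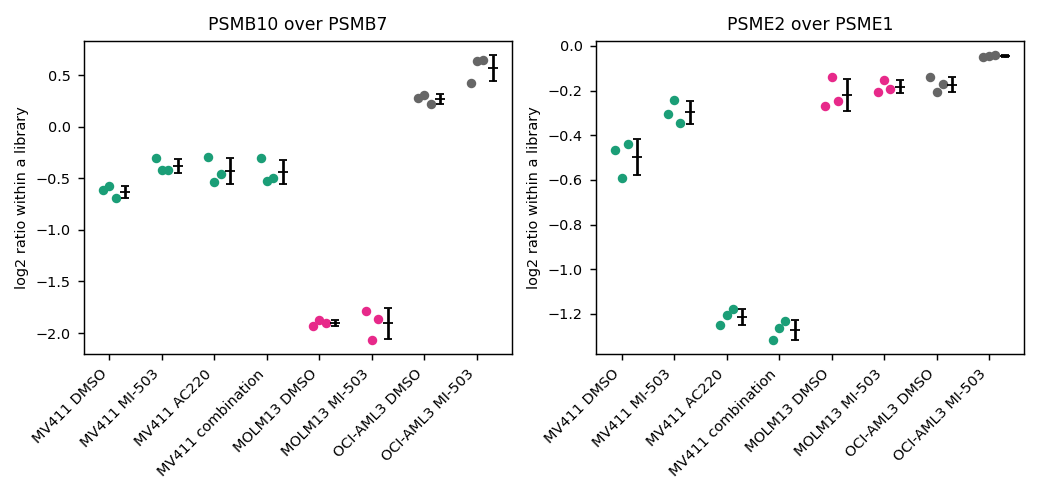
Log2 ratio of PSMB10 to PSMB7 (left) and of PSME2 to PSME1 (right) in every library (points) of the 8 groups, with mean and SD of 3 libraries. In the right panel the 6 AC220-treated libraries lie at -1.18 or lower, and all others at -0.59 or higher.

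MI-503 alone was given to all 3 lines, for 3 days in MV411 and 4 days in the others. In MOLM13, 29 of 45 tested members were lower and 2 higher (PSMF1 and PSMD10), where 59.9% of 13393 genes were called, 29.8% higher and 30.1% lower. The members' median was -0.14, beside -0.01 for all genes. All 11 non-ATPases and all 7 beta subunits were lower, with 3 of 6 ATPases and 3 of 7 alpha subunits, and 0 of the 4 immunoproteasome genes were called. Changes were small. PSMG1 had the largest, from 1924, 1919 and 1997 in DMSO to 1566, 1467 and 1502 with MI-503, or -0.36 ± 0.0369 (adjusted p 2.54e-07), with no overlap. PSMB2, a beta subunit, went from 4325, 4168 and 4283 to 3625, 3394 and 3394, or -0.30 ± 0.0322. PSMD11 fell by 0.23 and PSMD3, a lid scaffold, fell by 0.23. PSMF1 rose by 0.16 ± 0.0367 (adjusted p 0.00122). The increase of PSMD10, 0.12, was lost without DMSO replicate 1 (adjusted p 0.139) or DMSO replicate 2 (0.056). The decrease of PSMB7, -0.10, was lost without DMSO replicate 1 (0.127), DMSO replicate 3 (0.0851) or MI-503 replicate 3 (0.145). PSMB10 was called lower without MI-503 replicate 1 (-0.18, adjusted p 0.00428).

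On the deposited scale of MOLM13, all 45 tested members were lower with MI-503, with a median of -0.67. The median of all genes was then shifted to -0.54, and 83.4% of genes were called, 6.74% higher and 76.7% lower. PSMF1 and PSMD10 were lower on that scale, at -0.37 and -0.41, as was PSME2 at -0.50. On this scale PSMF1 and PSMD10 lay above the median gene, and the family's median lay below it. The main values are the deposited values divided by a factor for each library, which shifts all genes nearly alike. These positions relative to the median gene are therefore nearly fixed in advance and are not a separate check of the main result.

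In OCI-AML3, genes of the core and the immunoproteasome were higher more often than lower with MI-503. In all, 22 of 45 tested members were higher and 12 lower, where 65.5% of 15700 genes were called, 32.8% higher and 32.8% lower. The members' median was 0.04, beside -0.00 for all genes. With equal library totals 26 were higher and 8 lower, and the shares of all genes on that scale are not reported here. All 4 tested immunoproteasome genes and 5 of 7 beta subunits were higher, and all 6 ATPases were lower. PSMB10 went from 6326, 6362 and 5999 to 6960, 8248 and 8329, or 0.33 ± 0.0573 (limma adjusted p 0.000277). PSME2 went from 9228, 8727 and 8868 to 10370, 10792 and 10914, or 0.26 ± 0.0307 (adjusted p 1.13e-05), and PSME1 from 10171, 10083 and 9987 to 10736, 11141 and 11229, or 0.13 ± 0.0269 (adjusted p 0.001). None of these 3 overlapped between groups. PSMB8 was called at 0.75 ± 0.121, from 107, 92 and 104 to 201, 151 and 164, within the interval of few reads described above.

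Among the other OCI-AML3 members, PSMD8, a lid subunit, rose by 0.28 ± 0.0328, from 9252, 9135 and 9269 to 10631, 11523 and 11476. PSMB6 rose by 0.24, PSMB2 by 0.24, PSMB5 by 0.20 and PSMG3 by 0.26. PSMA6 fell by 0.32, from 9898, 9828 and 9828 to 8020, 7760 and 7854 (adjusted p 3.4e-07), PSMC5, an ATPase, fell by 0.25, and PSMC3 fell by 0.24. Groups of PSMD8 and of PSMA6 did not overlap. PSMC5 shares 874 exonic bases with FTSJ3 on the opposite strand. PSME4, the large PA200 activator, was called at 0.10, and that call was lost without DMSO replicate 1 (adjusted p 0.135), DMSO replicate 2 (0.104), MI-503 replicate 1 (0.0721) or MI-503 replicate 2 (0.0691). PSME3, at -0.07, was called without MI-503 replicate 1 (-0.10, adjusted p 0.00196). On the deposited scale limma called 0 of the 45 members in OCI-AML3, 1 had an unadjusted p under 0.05, 10.7% of all genes were called (3.85% higher and 6.82% lower), and the median of all genes was -0.16. EdgeR and DESeq2, which set their own factors, each called 22 higher and 12 lower.

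Set side by side, 9 members were called lower with MI-503 in MV411 and MOLM13 and higher in OCI-AML3, and 4 (PSMC3, PSMC6, PSMD14 and PSMG1) were called lower in all 3 lines, of 45 members tested in all 3. Of the 12634 genes tested in all 3 lines, 3.08% showed the first pattern and 7.22% the second. For 20 of the 45 members, all MI-503 libraries of 1 line lay below its DMSO libraries and all those of another line above, as did 35.2% of the genes tested in all 3 lines, and for 3 of the 20 (PSMD1, PSMD5 and PSMD9) 1 side was not called. No member shows the pattern of 9 on the deposited scale of OCI-AML3, where none was called. The tables were normalised separately and MV411 was treated for a shorter time, so the difference between lines was not tested. PSMA3, for example, fell by 0.49 in MV411 and by 0.10 in MOLM13, and rose by 0.10 in OCI-AML3. PSMF1 was higher in MV411 and MOLM13 and was not called in OCI-AML3 (0.04, adjusted p 0.304).

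**Figure D4:**
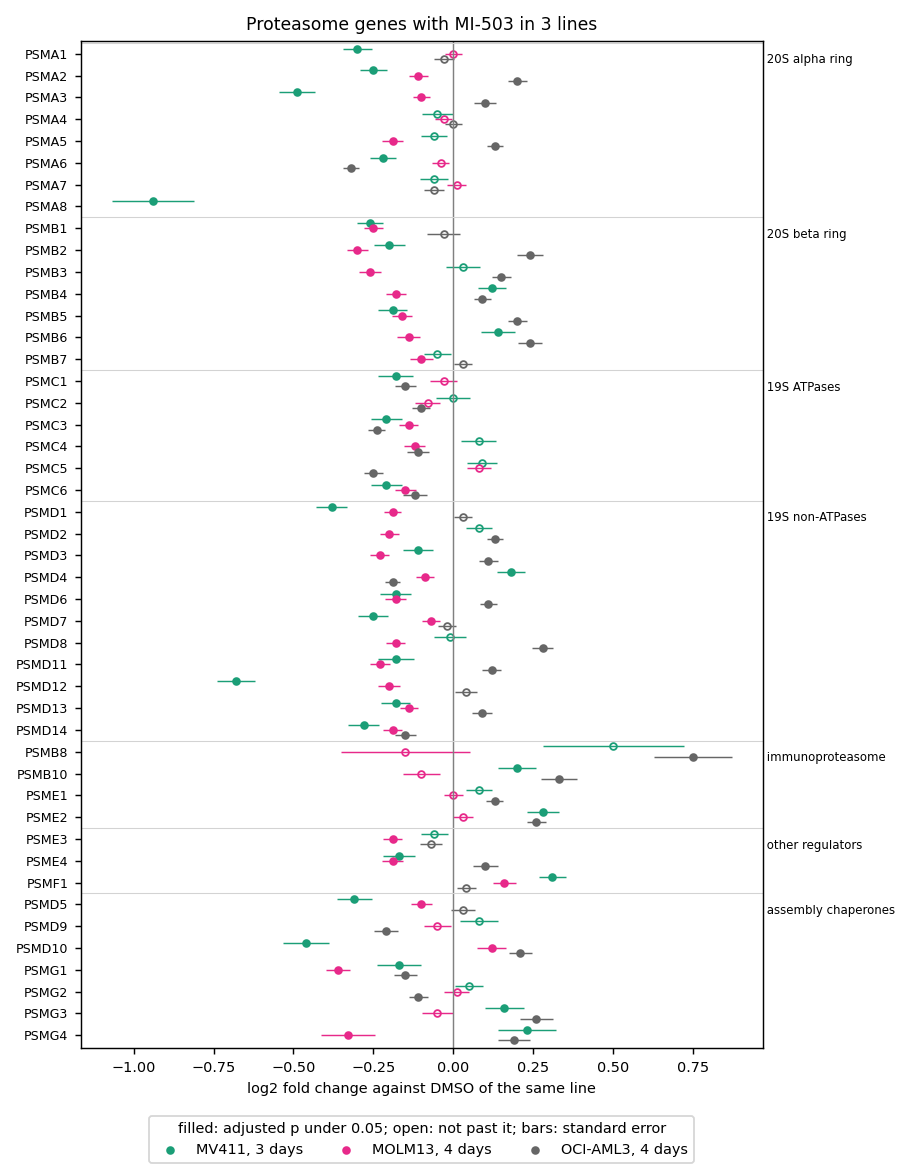
Log2 fold change with MI-503 against DMSO of the same line (horizontal axis) for each tested proteasome gene in MV411, MOLM13 and OCI-AML3 (colours), 3 libraries a group. Bars are standard errors and filled points passed an adjusted p of 0.05. OCI-AML3 points of the beta ring and the immunoproteasome lie mostly right of 0, and MOLM13 points of the non-ATPases all lie left of it.

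Partner genes of the proteasome were described in the same fits. The list held 32 partner symbols (shuttles, deubiquitinases, assembly factors and regulators of its transcription), with alternative symbols for some genes. Of these symbols 29 were present in the data, and all 29 were tested in each line. AC220 lowered 19 and raised 5 (65.5% and 17.2%, beside 37.3% and 37.7% of all genes), with a median of -0.33 beside 0.01. POMP, which matures the 20S core, had 2523, 2486 and 2443 in DMSO and 1001, 887 and 1052 with AC220, or -1.34 ± 0.0686 (adjusted p 1.4e-14). UCHL5, a deubiquitinase of the cap, had 2234, 2089 and 2055 against 829, 817 and 834, or -1.36 ± 0.0623 (adjusted p 1.69e-15). No AC220 library of either gene reached a DMSO library. MI-503 lowered 13 and raised 7 in MV411 (44.8% and 24.1%, beside 30.8% and 29.8% of all genes), with a median of -0.02 beside -0.01, POMP at -0.81 and UCHL5 at -0.84. Both drugs lowered 19 and raised 4 (65.5% and 13.8%, beside 40.1% and 39.3%), with a median of -0.34 beside 0.00, POMP at -1.54 and UCHL5 at -1.90. MI-503 lowered 12 and raised 6 in MOLM13 (41.4% and 20.7%, beside 30.1% and 29.8%), with a median of -0.04 beside -0.01, and ADRM1, a ubiquitin receptor of the cap, fell by 0.37. It lowered 11 and raised 5 in OCI-AML3 (37.9% and 17.2%, beside 32.8% each way), with a median of -0.08 beside -0.00, so the share lowered was near that of all genes. NFE2L1, the transcription factor that induces proteasome genes, fell by 0.45 with MI-503 in OCI-AML3 (adjusted p 1.34e-08), from 10011, 10003 and 9979 to 7364, 7241 and 7348. In MV411 it fell by 0.26 with MI-503 (adjusted p 0.000115), by 0.54 with AC220 (adjusted p 1.02e-09) and by 0.62 with both (adjusted p 5.85e-11), and in MOLM13 its change of 0.05 was not called (adjusted p 0.217).

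The MHC class I list holds the genes that load and display peptides made by the proteasome. Of 14 genes 11 were tested in MV411, where TAP1, TAP2 and TAPBP were under the filter. MI-503 raised 7 and lowered 4, AC220 raised 7 and lowered 4, and both drugs raised 7 and lowered 3, with medians of 0.43, 0.26 and 0.53 beside -0.01, 0.01 and 0.00 for all genes. In each of these comparisons 63.6% of the list was higher, beside 29.8%, 37.7% and 39.3% of all genes. Lower were 36.4%, 36.4% and 27.3% of the list, beside 30.8%, 37.3% and 40.1% of all genes, so with AC220 the share lowered was near the background. HLA-C rose by 0.83 with MI-503 and by 1.25 with both, and HLA-B by 0.79 and 1.21. ERAP2, a peptide-trimming enzyme, had the largest change of the list with MI-503, at 1.23, and rose by less with both, at 0.53. CALR, a chaperone of class I loading in the endoplasmic reticulum, fell by 1.14 with AC220. Of 12 tested in MOLM13, MI-503 raised 10 and lowered 1 (83.3% and 8.33%, beside 29.8% and 30.1% of all genes), with a median of 0.25 beside -0.01. Of 13 tested in OCI-AML3 it raised 8 and lowered 0 (61.5% and 0%, beside 32.8% each way), with a median of 0.16 beside -0.00 and ERAP2 at 0.61. The 8 include TAP2 (0.48), and the 13 include TAPBP (0.72, not called, adjusted p 0.0654). Both lie within 500 kb of PSMB8, in the interval of few reads, and their counts are likewise not taken as levels, nor is that of TAP2 among the 12 of MOLM13. With AC220, PSME2 fell by 0.78 and HLA-B rose by 0.61.

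**Figure D5:**
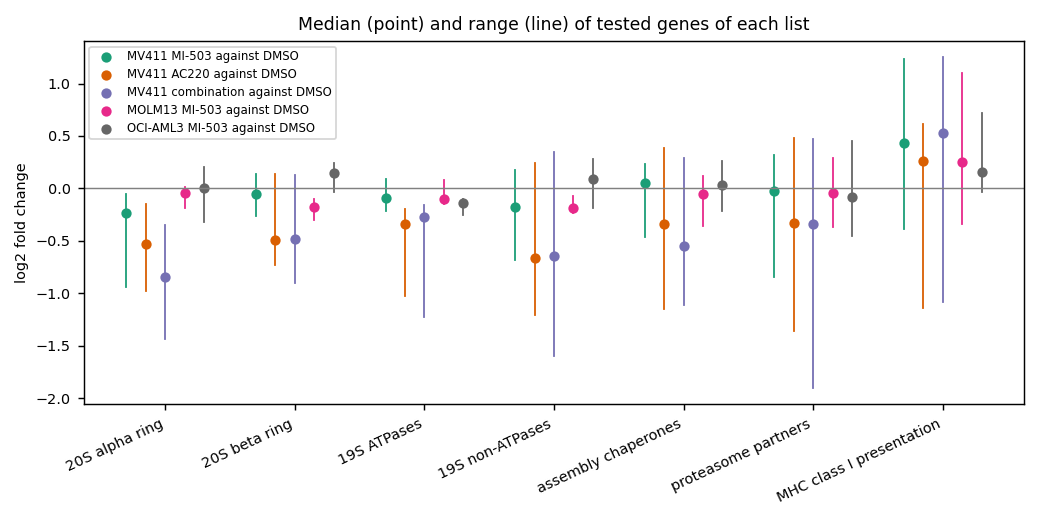
Median (points) and range (lines) of log2 fold changes of the tested genes of each list in 5 comparisons against DMSO (colours). The MHC class I medians lie above 0 in all 5, and the medians of the alpha ring and of the non-ATPases in MV411 lie below 0.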

How the data were processed

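The authors deposited 1 table per line with a normalised signal per gene and library. Within a tolerance of 0.001, 100% of values were whole reads divided by 1 factor per library. The labels' protocols state paired reads of 50 bases and ERCC spike-in RNA added for normalisation. The submitters' processing notes name DESeq 2 and hg38. The aligner, counter, strand setting and annotation are not given in the sources used here. MV411 values were used as deposited, because their median-of-ratios factor was 1 in each of the 12 libraries. The MV411 values are thus already scaled by genes. In MOLM13 and OCI-AML3 the deposited factors were not those of the genes' median ratios, so values were divided by such factors. This sets the deposited scale of those 2 lines aside in the main results. A change shared by all genes does not show in values scaled by genes.

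Genes that reached 10 in 3 or more libraries of a table were tested on log2(value + 1) with limma 3.58.1 (variance trend, two-sided, R 4.3.3), with all 12 MV411 libraries in 1 fit and p-values adjusted over all genes tested. Fold changes are on that scale and understate those of low genes. Alternatives were edgeR 4.0.16 and DESeq2 1.42.0 on recovered reads, other scalings, pseudocounts and filters, each library left out, and a replicate block. The limma fit of MI-503 against DMSO was tested on simulated reads for each line, and the other steps were not. Genes named in a comparison were drawn from the immunoproteasome genes, PSMB5, PSMB6 and PSMB7, and the 3 members of each role with the largest change. The member with the smallest change and genes from counts of 5 or fewer were also drawn on. Not every gene so drawn is given in each comparison. Members and lists were chosen with earlier results of these data known. Gene positions and overlaps come from GENCODE on hg38, and promoters from RefSeq. Single values of some genes of the marker and partner lists are not reported here.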

Additional observations from a re-analysis of the deposited data

Results flagged for a closer look

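In MV411 the effect of MI-503 differed between cells with and without AC220, by a limma test of the interaction, for 11 of 46 tested members. Of all genes 42.5% were called, so the members' share was below the background. The calls of PSMA1, PSMD14, PSME4 and PSMB10 were lost when certain single libraries were left out, as given above. The difference (with AC220 minus without, log2 scale) was 0.33 for PSMD11, 0.29 for PSMD12, 0.18 for PSMA1, -0.17 for PSMD14, -0.20 for PSMF1, -0.21 for PSME4, -0.26 for PSMB10, -0.33 for PSMA6, -0.34 for PSME1, -0.50 for PSMG4 and -0.60 for PSME2.

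For 20 members, every MI-503 library of 1 line lay below all its DMSO libraries while every MI-503 library of another line lay above its own, out of 45 tested in all 3 lines, and 35.2% of the 12634 genes tested in all 3 lines showed such a pair. In 3 of the 20, 1 side did not pass the limma test (PSMD1 and PSMD5 in OCI-AML3 and PSMD9 in MV411). The difference between lines was not tested, and the widest pair is given as the higher minus the lower log2 change. In 9 members the pair was OCI-AML3 minus MOLM13: PSMA5 (0.32), PSMB2 (0.53), PSMB3 (0.41), PSMB6 (0.38), PSMD11 (0.35), PSMD2 (0.33), PSMD3 (0.33), PSMD6 (0.30) and PSMD8 (0.46). In 7 it was OCI-AML3 minus MV411: PSMA2 (0.45), PSMA3 (0.60), PSMB5 (0.40), PSMD1 (0.41), PSMD10 (0.67), PSMD13 (0.27) and PSMD5 (0.34). In 2 it was MV411 minus MOLM13, for PSMB4 (0.30) and PSMG4 (0.56), and in 2 it was MV411 minus OCI-AML3, for PSMD4 (0.37) and PSMD9 (0.29). On the deposited scale no member was called in OCI-AML3 and all 45 were lower in MOLM13.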

How the results depend on the processing

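In MV411 the counts of members called in either direction stayed within 1.5 times the reported count under every alternative run, but some counts in 1 direction did not, as the report gives for library scaling and left-out libraries. For both drugs against AC220 the 7 higher members were 4 with no filter, 3 with no variance trend and 4 with only the groups compared, and the 8 negative interactions were 5 with no variance trend. Leaving out 1 library gave 26 to 30 with MI-503, 41 to 42 with AC220, 41 to 43 with both, 39 to 42 and 24 to 29 for both drugs against MI-503 and against AC220, 9 to 13 for the interaction, 28 to 31 in MOLM13 and 29 to 35 in OCI-AML3. The deposited scale of OCI-AML3 called 0 members and 1676 genes, against 34 and 10291. It also turned PSMA5 (-0.03), PSMB7 (-0.13), PSME1 (-0.03), PSME4 (-0.06) and PSMF1 (-0.12) there, and PSMD10 (-0.41), PSME2 (-0.50) and PSMF1 (-0.37) in MOLM13.

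All other reversals were of values that did not pass the test. Equal totals gave -0.01 for PSMD9 (both against DMSO), -0.02 for PSMB4 (both against MI-503), -0.03 for PSMB6 and -0.02 for PSMB8 (both against AC220), and 0.05 for PSMA4 in OCI-AML3. DESeq2 gave -0.00 for PSMC2 with MI-503 in MV411, 0.00 for the PSMB7 interaction and 0.00 for PSME1 in MOLM13, as did edgeR and TMM scaling for PSME1. Without 1 library, PSMC2 with MI-503 ranged from -0.05 to 0.05, the PSMB7 interaction from -0.03 to 0.02, PSME1 in MOLM13 from -0.03 to 0.01 and PSMA4 in OCI-AML3 from -0.02 to 0.01. For both drugs against DMSO, PSMB10 ranged from -0.00 to 0.12, PSMB8 from -0.08 to 0.28 and PSMD9 from -0.03 to 0.05, and PSMB4 against MI-503 ranged from -0.02 to 0.06. Against AC220, PSMB10 ranged from -0.13 to 0.01, PSMB4 from -0.04 to 0.04, PSMB6 from -0.02 to 0.05 and PSMB8 from -0.19 to 0.17. The MOLM13 shift of the PSMB10 to PSMB7 ratio ranged from -0.07 to 0.08 and that of PSMB8 to PSMB5 from -0.18 to 0.16. The cause of these reversals was not tested.

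With the replicate number as a block, the counts were 31 with MI-503, 42 with AC220, 43 with both, 41 and 28 for both drugs against each single drug, 10 for the interaction, 33 in MOLM13 and 32 in OCI-AML3. Same-numbered libraries did not deviate together (correlations from -0.081 to 0.121 in MV411, -0.006 to 0.057 in MOLM13 and -0.032 to 0.041 in OCI-AML3), so the numbers were not taken as pairs.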
